A study of Homo sapiens with 12 samples.

Results

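A set of 9 long noncoding RNA genes was followed through RAF inhibition of melanoma cells: 5 hosts of small nucleolar RNAs (snoRNAs), namely GAS5 (growth arrest-specific 5), SNHG1, SNHG5, SNHG8 and ZFAS1, and 4 other long noncoding RNAs, namely MALAT1, NEAT1, MEG3 and H19. The genes were taken by symbol from the expression tables, which list 23273 genes, and all 9 members were found. Of these, 8 stand under their own symbol and ZFAS1 stands under ZNFX1-AS1, which RefSeq gives as a synonym. RNA was measured in COLO858 and MMACSF, established BRAF-mutant melanoma cell lines, each grown as 2 replicate plates under vehicle (DMSO), under 0.2 µM vemurafenib for 24 h, and under the same dose for 48 h. Vemurafenib is an inhibitor of mutant BRAF. That makes 6 groups and 12 libraries, with 1 set of DMSO libraries per line serving as the control for both drug times. The time at which the DMSO plates were harvested is not in the labels, so hours in culture and drug cannot be told apart at a given time point.

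A snoRNA host gene carries snoRNAs in its introns, which are released after splicing and guide chemical modification of ribosomal RNA. The spliced host RNA of this class typically begins with a run of pyrimidines (a 5′ terminal oligopyrimidine, or TOP, tract) of the kind found on the messages of ribosomal proteins, is engaged by ribosomes although it codes for little, and is removed by nonsense-mediated decay. GAS5 takes its name from cells in growth arrest, where the spliced RNA accumulates as translation slows. NEAT1 is the RNA scaffold of paraspeckles, MALAT1 is a nuclear RNA of the speckles that hold splicing factors, and H19 and MEG3 are transcribed from imprinted loci.

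Annotation of the build the tables use (hg19, here GRCh37) placed the snoRNA hosts on 5 chromosomes, with GAS5 at chr1:173827697-173838020 on the minus strand, SNHG1 at chr11:62619450-62623425 (minus), SNHG5 at chr6:86360209-86388650 (minus), SNHG8 at chr4:119199858-119206471 (plus) and ZFAS1 at chr20:47894715-47916137 (plus). NEAT1 (chr11:65190245-65213011) and MALAT1 (chr11:65265111-65275544) lie on the plus strand of the same chromosome arm with 52099 bases between them. H19 lies at chr11:2016396-2025782 (minus) and MEG3 at chr14:101245747-101327368 (plus). All 9 are annotated as long noncoding RNA genes. Within the RefSeq spans, 11 small RNA genes fall in GAS5, 8 in SNHG1, 3 in ZFAS1, 2 in SNHG5 and 1 in SNHG8, all of them snoRNAs, while NEAT1, MEG3 and H19 each span 1 microRNA gene (MIR612, MIR770 and MIR675) and MALAT1 spans none.

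The start of each snoRNA host is shown because the TOP tract is the sequence feature that the class shares with the translation genes used for comparison below. Each line holds 80 bases of RefSeq sequence (GRCh38.p14) in the direction of transcription, from 30 bases before to 50 bases after the annotated start, and capitals mark a run of 5 pyrimidines that opens with C and begins within 5 bases of that start. In the same order, the windows lie at chr6:85678684-85678763, chr20:49278612-49278691, chr4:118278732-118278811, chr11:62855836-62855915 and chr1:173868996-173869075.
SNHG5: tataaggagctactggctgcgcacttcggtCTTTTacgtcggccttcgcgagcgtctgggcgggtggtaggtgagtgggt
ZFAS1: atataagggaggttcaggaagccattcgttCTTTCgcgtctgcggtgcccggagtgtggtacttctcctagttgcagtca
SNHG8: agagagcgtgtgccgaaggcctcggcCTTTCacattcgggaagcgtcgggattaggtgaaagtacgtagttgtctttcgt
SNHG1: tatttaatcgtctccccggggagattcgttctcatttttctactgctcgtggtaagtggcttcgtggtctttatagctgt
GAS5: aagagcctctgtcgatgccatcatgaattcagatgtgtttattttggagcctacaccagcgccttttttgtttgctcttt
By this definition a tract stood at the start of SNHG5, ZFAS1 and SNHG8 and not at the annotated starts of SNHG1 and GAS5, each of which has a longer pyrimidine run further into the window. Among all 27305 promoters in the RefSeq table, 21.1% had such a tract. The share was 80.6% (58 of 72) for the translation genes with an entry. It was 53.8% (7 of 13) for the RNAs with an entry in the list of further snoRNA hosts described below. Of the 8 members with an entry, 5 had a tract at 1 or more of their starts, MALAT1 and MEG3 being the other two. The E-box CACGTG, searched on both strands of the 300 bases, was in 7.43% of all promoters and in 0 members, and the AP-1 motif TGACTCA was in 4.92% and in 0. TATAAA was in 12% and in 3 members (SNHG1, MALAT1 and MEG3), and the ETS core CGGAAG was in 19.9% and in MALAT1.

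Values are FPKM (mapped fragments scaled for transcript length and library size), which allow levels of different genes to be set side by side. The number of reads behind a value is unknown, so no counting interval can be given. Summed FPKM per library ran from 670310 to 1013038. Genes of small RNAs took 20.8% to 27.3% of that sum in the 6 libraries of replicate 1 and 33.6% to 50.6% in the 6 of replicate 2, so replicate 2 stood apart in both lines. COLO858 had 8 of 11 melanocyte lineage markers at a mean of 1 FPKM or more and MMACSF had 11 of 11. Of lists for other cell types, the endothelial had 0 of 5 at that mean in either line, the keratinocyte 1 of 5 in each (KRT10, with KRT5 and KRT1 at 0), the fibroblast 2 of 5 in COLO858 (summed 9.14 to 28.4 FPKM) and 3 of 5 in MMACSF (20.1 to 79.1), and the leukocyte 1 of 5 (4.31 to 16.7) and 2 of 5 (49.9 to 89.2), with CD3E at 0. These markers moved in both directions at 48 h. Of 4 fibroblast genes tested in COLO858, 3 were higher and 1 lower, with LUM highest at 1.45 (adjusted p = 0.0284) and COL1A2 lowest at -1.70. In MMACSF 0 of the 3 tested were higher, with LUM lowest at -1.47 (adjusted p = 0.0148). CD68 fell by 1.37 in COLO858 (adjusted p = 0.00963), and LYZ was lowest of the leukocyte genes in MMACSF at -1.61. COL1A2 in COLO858 and LYZ in MMACSF reached 1 FPKM only in groups where they were high, with 48 h means of 0.113 and 0.567 FPKM. Their lower values are given as a description. The part of these markers in the results was not tested. MKI67, a marker of cycling cells, went from 15.9 and 19.8 FPKM in COLO858 under DMSO to 2.47 and 2.91 at 24 h and 10.9 and 12.5 at 48 h, and in MMACSF from 10 and 11 to 1.04 and 1.37 and then to 0.043 and 0.0852. In bulk RNA of this kind, fewer cells of a type and less RNA per cell cannot be told apart. Since each group is 2 plates, p-values here measure the spread between plates. The main fit had no term for the replicate number, so that spread includes whatever same-numbered libraries shared. Differences were tested with limma on log2(FPKM + 1), and an adjusted p (Benjamini-Hochberg over all genes tested) under 0.01 was taken as a change. Of the 9 genes, 8 reached a group mean of 1 FPKM and were tested, 7 of them at or over that level in all 6 groups.

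The 3 highest of the 9 genes under DMSO were the snoRNA hosts SNHG5, GAS5 and ZFAS1 in each line. Under that condition in COLO858 the order was SNHG5 (mean 339 FPKM, SD 10.7, n = 2), GAS5 (323, SD 45), ZFAS1 (232, SD 4.84), SNHG1 (139, SD 29.8), SNHG8 (109, SD 9.05) and NEAT1 (107, SD 9.6), followed by H19 (67.9, SD 11) and MALAT1 (9.55, SD 2.75). The libraries of SNHG5 and GAS5 overlapped, as did those of SNHG8 and NEAT1, and the other neighbours in this order did not. In MMACSF the order began with GAS5 (768, SD 8.63), ZFAS1 (676, SD 10.1) and SNHG5 (483, SD 10.6), went on to NEAT1 (383, SD 6.79), SNHG8 (299, SD 41.6), SNHG1 (74.3, SD 6.22) and MALAT1 (17.3, SD 2.36), and ended with H19 (2.05, SD 0.13), with no overlap between neighbours. By mean FPKM, GAS5 ranked 127 of 23273 genes in MMACSF under DMSO and 84 after 48 h of drug. The tables of COLO858 and MMACSF were normalized separately, so levels are set beside each other across lines without a test.

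**Figure D1:**
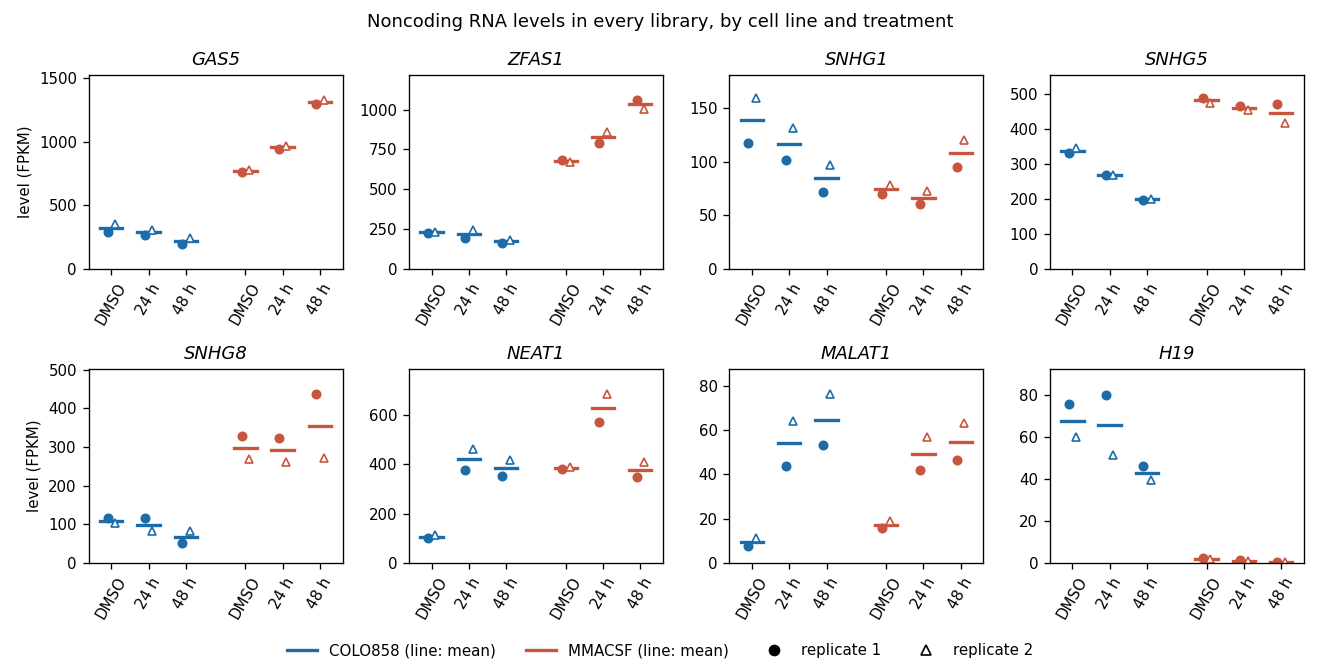
FPKM of the 8 noncoding RNAs that were detected, in each of the 12 libraries (y axis, linear from 0; x axis, DMSO and 24 h and 48 h of 0.2 µM vemurafenib for COLO858 in blue and MMACSF in red; filled circles replicate 1, open triangles replicate 2, bars group means). GAS5 at 48 h is 1299 and 1330.3 against 762 and 774 under DMSO in MMACSF, and 195 and 244 against 291 and 355 in COLO858, and NEAT1 at 48 h is above DMSO in COLO858 and brackets it in MMACSF.

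GAS5, the best known growth arrest RNA of this class, rose in MMACSF and had a different response in COLO858. In MMACSF it was 762 and 774 FPKM under DMSO, 942 and 969.7 at 24 h, and 1299 and 1330.3 at 48 h. Every drug library was above every DMSO library and both 48 h libraries were above both 24 h libraries. GAS5 rose at 48 h by 0.77 (SE 0.10) on the log2(FPKM + 1) scale, 1.71-fold in means (adjusted p = 0.00645). At 24 h the difference was 0.31 (SE 0.10, adjusted p = 0.083). With any 1 of the 6 MMACSF libraries left out, the 48 h difference stayed between 0.76 and 0.79 and the adjusted p was 0.0207 to 0.0533, so the call needed every library. It was lost as well under median-ratio rescaling (0.72, adjusted p = 0.0105), no minimum (adjusted p = 0.0128), no variance trend (adjusted p = 0.0107) and a fit of the compared groups alone (adjusted p = 0.0225).

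In COLO858 the GAS5 values were lower at 48 h than under DMSO. They were 291 and 355 FPKM under DMSO, 267 and 307 at 24 h, and 195 and 244 at 48 h. The 48 h libraries lay below all others, and the 24 h and DMSO libraries overlapped. The difference at 48 h was -0.56 (SE 0.18, adjusted p = 0.0744) and at 24 h -0.17 (SE 0.18, adjusted p = 0.521). The difference between the lines at 48 h, COLO858 minus MMACSF, was itself tested as an interaction over the 12 libraries, in which the scale of each table cancels. For GAS5 it was -1.33 (SE 0.19, adjusted p = 0.00277). It was past the threshold in 7 of the 12 fits with 1 library left out, lost without either MMACSF DMSO library, either MMACSF 48 h library or the second COLO858 DMSO library, with a range from -1.49 to -1.17 and an adjusted p of at most 0.0136. With libraries rescaled by their sum without small RNA genes the value was -1.13 and missed the threshold (adjusted p = 0.0106).

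ZFAS1, whose introns carry the SNORD12 family, had a difference between lines of the same sign as GAS5. It was 684 and 669 FPKM in MMACSF under DMSO, 793 and 856 at 24 h, and 1062 and 1001 at 48 h, with no overlap between any groups. The 48 h difference was 0.61 (SE 0.11) and missed the threshold (adjusted p = 0.0147). COLO858 had 228 and 235 FPKM under DMSO, 197 and 245 at 24 h, and 163 and 183 at 48 h. Here the 24 h libraries straddled DMSO and the 48 h libraries were below it, with a difference of -0.42 (SE 0.15, adjusted p = 0.0975). The difference between lines at 48 h passed the test at -1.03 (SE 0.17, adjusted p = 0.00473). In the 8 fits that left out a DMSO or 48 h library of either line it did not pass, with an adjusted p of at most 0.0222 and values from -1.12 to -0.94 over all 12 such fits. It also missed after rescaling by the sum without small RNA genes (-0.83, adjusted p = 0.0183).

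SNHG1, host of the SNORD22 to SNORD31 cluster, had 48 h libraries below DMSO in COLO858 and above it in MMACSF. COLO858 had 118 and 160 FPKM under DMSO, 102 and 132 at 24 h, and 72.2 and 97.6 at 48 h, a difference of -0.70 at 48 h (SE 0.24, adjusted p = 0.0937). MMACSF had 69.9 and 78.7 under DMSO, 60.3 and 72.8 at 24 h, and 95.5 and 121 at 48 h, a difference of 0.53 (SE 0.17, adjusted p = 0.0776). In each line the 48 h libraries stood clear of DMSO, the second replicate was the higher in every group, and neither difference passed the test without a term for the replicate. The difference between lines at 48 h was -1.23 (SE 0.32, adjusted p = 0.0333).

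SNHG5, host of the SNORD50 pair, fell in COLO858. It was 331 and 346 FPKM under DMSO, 268 and 270.2 at 24 h, and 198 and 201 at 48 h, with no overlap between groups and little spread between plates. SNHG5 fell at 48 h by 0.76 on the log2 scale (SE 0.10, adjusted p = 0.00746), and the 24 h difference was -0.33 (adjusted p = 0.071). When any 1 COLO858 library was left out, the 48 h difference ran from -0.79 to -0.73 and the adjusted p from 0.0264 to 0.0528. The call was also lost under median-ratio rescaling (-0.75, adjusted p = 0.0102), rescaling by the sum without small RNA genes (-0.51, adjusted p = 0.025), no variance trend (adjusted p = 0.0121) and a fit of the compared groups alone (adjusted p = 0.0254). MMACSF held 491 and 476 FPKM under DMSO, 466 and 454 at 24 h, and 474 and 417 at 48 h, a difference at 48 h of -0.12 (SE 0.11, adjusted p = 0.475). The difference between lines at 48 h was -0.64 (SE 0.13, adjusted p = 0.0109).

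SNHG8, host of SNORA24, had the widest spread between plates of the 5. COLO858 had 115 and 103 FPKM under DMSO, 115 and 83.5 at 24 h, and 50.5 and 82.4 at 48 h, and MMACSF had 328 and 269, then 323 and 261, then 437 and 270.1. The COLO858 48 h libraries were below all others and the MMACSF groups overlapped throughout. No difference passed the test, the 48 h values being -0.75 (SE 0.28, adjusted p = 0.115) in COLO858 and 0.21 (SE 0.26, adjusted p = 0.598) in MMACSF.

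Ratios taken inside a library do not depend on how libraries were scaled. Set against the summed FPKM of the translation genes, a list of ribosomal protein genes and translation factors known for TOP tracts, GAS5 in MMACSF was 4.62 and 5.43 per 1000 under DMSO, 5.62 and 6.55 at 24 h, and 7.11 and 8.77 at 48 h. ZFAS1 was 4.14 and 4.7, then 4.73 and 5.79, then 5.81 and 6.6. For both genes every drug library in MMACSF was above every DMSO library on this measure. In COLO858, GAS5 was 1.69 and 2.25 per 1000 under DMSO, 2.03 and 2.53 at 24 h, and 1.85 and 2.4 at 48 h, groups that overlapped. ZFAS1 in COLO858 was 1.33 and 1.49, then 1.5 and 2.02, then 1.54 and 1.8. Its drug libraries were thus above both DMSO libraries in that line too, although its FPKM was lower at 48 h. SNHG1 in MMACSF was 0.424 and 0.552 under DMSO and 0.523 and 0.795 at 48 h, groups that overlapped. SNHG5 in MMACSF was 2.97 and 3.34 under DMSO and lower at 48 h, at 2.6 and 2.75. The ratio of GAS5 to SNHG5 was 1.55 and 1.63 in MMACSF under DMSO and 2.74 and 3.19 at 48 h, so these hosts changed unequally within the same libraries, while in COLO858 it was 0.879 and 1.02 and then 0.983 and 1.21. GAS5 to ZFAS1 stayed between 1.11 and 1.33 in all 6 MMACSF libraries.

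**Figure D2:**
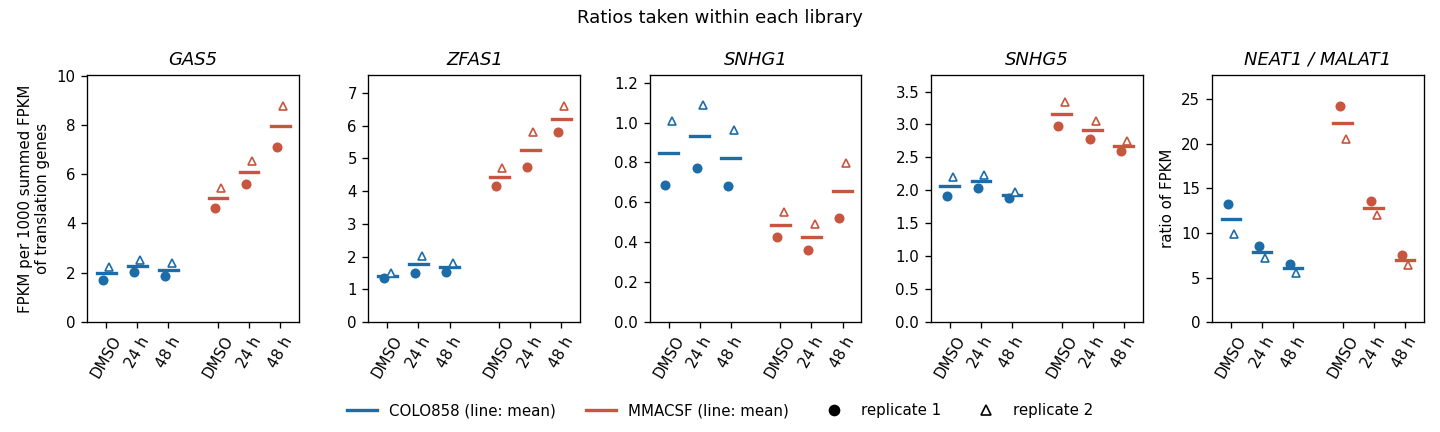
Ratios inside each library: FPKM of GAS5, ZFAS1, SNHG1 and SNHG5 per 1000 summed FPKM of the translation genes (first 4 panels, y axes linear from 0) and FPKM of NEAT1 over MALAT1 (last panel), by treatment for COLO858 (blue) and MMACSF (red), with circles for replicate 1, triangles for replicate 2 and bars for means. GAS5 in MMACSF is 4.62 and 5.43 under DMSO and 7.11 and 8.77 at 48 h, and NEAT1 over MALAT1 is lower at 24 h and 48 h than under DMSO in both lines.

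Counts over the 9 genes were as follows. In COLO858 at 24 h, 2 of the 8 tested rose and 0 fell, where 4.11% of 12696 tested genes rose and 5.71% fell. At 48 h, 2 rose and 1 fell, against 4.74% and 4.73%. All 8 had 48 h libraries that did not overlap DMSO, 2 above and 6 below, where the shares over all genes were 29.9% above and 31.4% below. The median difference was -0.60 over the 8 and -0.01 over all genes. In MMACSF at 24 h, 0 of 8 passed limma's test (5.83% of 12599 genes did), and 5 had an unadjusted p under 0.05. At 48 h, 2 rose and 1 (H19) was lower, against 3.42% and 5.41%, and 6 of 8 did not overlap DMSO (35.7% of all genes were clear above and 28.8% clear below), with a median of 0.37 over the 8 and 0.06 over all genes. Without H19, which reached the minimum in MMACSF only where it was high, 2 of 7 rose, 0 fell, 5 did not overlap and the median was 0.53. The comparisons at 24 h and 48 h share their DMSO libraries. Between 24 h and 48 h, 0 of 8 passed limma's test in COLO858 (1.38% of all genes) and 0 of 8 in MMACSF (0.222%), with 1 and 5 at an unadjusted p under 0.05. The difference between lines passed for 0 of 8 at 24 h (3.71% of 13595 genes, 2 of 8 at an unadjusted p under 0.05) and for 0 of 8 from 24 h to 48 h (2.96%, 5 of 8). At 48 h it passed for 3 of 8, with 2 lower in COLO858 and 1 higher, against 3.3% and 4.19% of all genes.

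**Figure D3:**
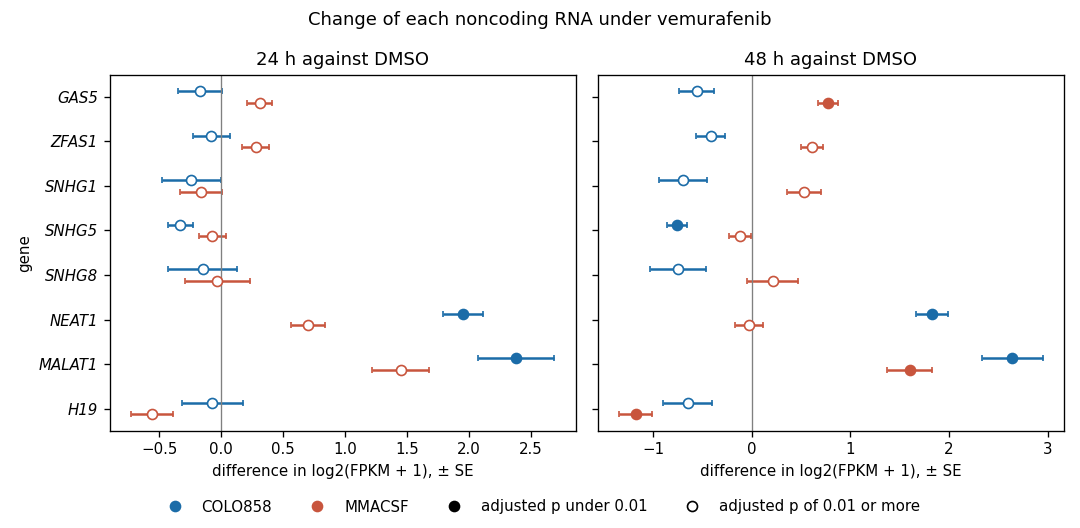
Difference from DMSO in log2(FPKM + 1) with its standard error (x axis) for each noncoding RNA (y axis), at 24 h (left) and 48 h (right), COLO858 in blue and MMACSF in red; filled points have an adjusted p under 0.01. At 48 h GAS5 is at 0.77 in MMACSF and -0.56 in COLO858, and NEAT1 is at -0.03 and 1.83.

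NEAT1, the paraspeckle scaffold, rose in COLO858 at both drug times. It was 100.2 and 114 FPKM under DMSO, 377 and 461 at 24 h, and 350.2 and 417 at 48 h. Every drug library was above every DMSO library, and the 24 h and 48 h libraries overlapped. The rise was 1.95 on the log2 scale at 24 h (SE 0.16, 3.91-fold, adjusted p = 0.00206) and 1.83 at 48 h (SE 0.16, 3.58-fold, adjusted p = 0.00258). Leaving out 1 of the 4 libraries compared lost either call, with adjusted p-values up to 0.0213 at 24 h and 0.0238 at 48 h and differences between 1.70 and 2.10. Leaving out a library of the other drug time lost neither.

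In MMACSF no difference of NEAT1 passed the test. It was 379 and 388 FPKM under DMSO, 569.8 and 685 at 24 h, and 346 and 408 at 48 h. Both 24 h libraries were above the others, and the 48 h libraries bracketed DMSO. The difference was 0.70 at 24 h (SE 0.14, adjusted p = 0.0263), -0.03 at 48 h (SE 0.14, adjusted p = 0.903) and -0.73 between 48 h and 24 h (SE 0.14, adjusted p = 0.231). The lines differed at 48 h by 1.86 (SE 0.22, adjusted p = 0.000951), a call that was made in 12 of 12 fits with 1 library left out (adjusted p at most 0.00601) and in all 9 other settings tried. At 24 h the difference between lines was 1.25 (SE 0.22, adjusted p = 0.0107).

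MALAT1, a nuclear speckle RNA, was the member with the largest fold rise in each line. COLO858 had 7.61 and 11.5 FPKM under DMSO, 43.8 and 64.3 at 24 h, and 53.3 and 76.3 at 48 h. MMACSF had 15.6 and 18.9, then 41.8 and 57, then 46.3 and 63.1. In both lines every drug library was well above every DMSO library and the 2 drug times overlapped. COLO858 rose by 2.38 at 24 h (SE 0.31, 5.66-fold, adjusted p = 0.00595) and 2.64 at 48 h (SE 0.31, 6.79-fold, adjusted p = 0.00486). MMACSF rose at 48 h by 1.60 (SE 0.23, 3.17-fold, adjusted p = 0.00839), and the 24 h difference of 1.45 missed the threshold (SE 0.23, adjusted p = 0.0132). None of these 3 calls held with any 1 library of the line left out, where adjusted p-values were 0.0143 to 0.0613 and the differences 2.11 to 2.91 in COLO858 and 1.38 to 1.82 in MMACSF. The MMACSF call was also lost with no minimum, no variance trend, the compared groups alone or rescaling by the sum without small RNA genes (adjusted p of at most 0.0158), and the COLO858 calls with the compared groups alone (0.014 and 0.0137 as adjusted p). The lines differed at 48 h by 1.05 (SE 0.41, adjusted p = 0.144).

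The FPKM of NEAT1 was above that of MALAT1 in every library, and the ratio was lower with drug. The kit selects polyadenylated RNA, and how much of either RNA it captured was not measured. The ratio is therefore of captured RNA, and values per gene do not separate transcript forms of NEAT1. It was 13.2 and 9.9 in COLO858 under DMSO, 8.59 and 7.16 at 24 h, and 6.57 and 5.46 at 48 h. In MMACSF it was 24.3 and 20.5, then 13.6 and 12, then 7.49 and 6.46. No group overlapped another of the same line, so the FPKM of these neighbouring genes changed unequally in both lines.

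H19, whose transcript is also the precursor of miR-675, was low in MMACSF from the start and lower with drug. COLO858 had 75.7 and 60.1 FPKM under DMSO, 80.2 and 51.6 at 24 h, and 46.2 and 39.4 at 48 h, where the difference was -0.65 (SE 0.25, adjusted p = 0.123). MMACSF had 2.14 and 1.96 under DMSO, 1.29 and 0.873 at 24 h, and 0.295 and 0.397 at 48 h, a stepwise order with no overlap. The 48 h difference in MMACSF was -1.18 on the log2(FPKM + 1) scale (SE 0.17, adjusted p = 0.00876). The added 1 FPKM compresses a change at this level, and the ratio of mean FPKM was 5.93-fold lower. H19 passed the minimum of 1 FPKM in MMACSF through its DMSO and 24 h groups alone, so its lower 48 h value is given as a description, and with no minimum at all the adjusted p was 0.00833. The adjusted p was 0.0107 with 0.1 FPKM added in place of 1, and 0.0122 to 0.0542 with any 1 library left out. IGF2, the imprinted growth factor gene beside H19, was at most 0.347 FPKM in any library, and MIR675 was listed at 0 in 11 of 12. MEG3 was listed at 0 in all 12 libraries and no level is given for it, and its neighbour DLK1 was at most 0.114 FPKM. TUBB, a tubulin gene that dividing cells use, was also listed at 0 in all 12.

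Genes that lie against the members matter because the library kit keeps strand but the strand setting of the authors' counting is not given in the sources used here, so reads of a member and of an overlapping gene on the other strand cannot be told apart. ZNFX1, which overlaps ZFAS1 and starts 248 bases away on the opposite strand, was 7.4 and 7.7 FPKM in COLO858 under DMSO and 11.2 and 10.2 at 48 h, and 20.9 and 22 and then 30 and 32.8 in MMACSF. It was higher with drug in both lines at levels far under those of ZFAS1, with differences at 48 h of 0.45 (adjusted p = 0.0719) and 0.53 (adjusted p = 0.0307). ZBTB37, whose start is 800 bases from that of GAS5 on the opposite strand, was between 0.823 and 3.02 FPKM in all libraries, with 48 h differences of 0.37 (adjusted p = 0.266) in COLO858 and -0.23 (adjusted p = 0.294) in MMACSF. SLC3A2, an amino acid transporter subunit gene that starts 51 bases from SNHG1 in the other direction, had 48 h differences of -0.25 (adjusted p = 0.383) and -0.26 (adjusted p = 0.359). PRSS12, which overlaps SNHG8, was at most 3.94 FPKM.

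The snoRNAs inside the hosts could not be read alongside them. A list of 25 small RNAs of these genes was used, the snoRNAs and MIR675, with MIR612 and MIR770 left out. Of its 300 values, 115 (38.3%) are 0, and a single gene such as SNORD81 ran from 0 to 10711 FPKM across libraries. SNORD78 in GAS5 passed the test in MMACSF at 48 h (-9.86, adjusted p = 0.000187), a value that rests on zeros, since the gene was at 0 in 7 of 12 libraries. The kit selects polyadenylated RNA, which mature snoRNAs are not.

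From a list of 18 further snoRNA host RNAs, 14 were tested, of which 11 hold a snoRNA or a small Cajal body RNA in their RefSeq span and 3 (LINC00152, MIR17HG and TUG1) do not. At 48 h their median difference was -0.67 in COLO858 (0 rose, 2 fell) and 0.08 in MMACSF (1 rose, 1 fell). The medians over all genes were -0.01 and 0.06, with 4.74% rising and 4.73% falling in COLO858 and 3.42% and 5.41% in MMACSF. SNHG7 had the largest rise of the list in MMACSF, with 74.2 and 55.6 FPKM under DMSO, 153 and 129 at 24 h and 302 and 247 at 48 h. It rose by 2.07 (SE 0.19, adjusted p = 0.00274) at 48 h. In COLO858 SNHG7 was 81.2 and 57.6, then 68.9 and 49.7, then 39.7 and 38.6, a 48 h difference of -0.79 (adjusted p = 0.0639), and the difference between lines was -2.86 (adjusted p = 0.00079). DANCR fell in COLO858, from 60.7 and 61 to 18.7 and 22.4 at 48 h (-1.53, adjusted p = 0.0042), and in MMACSF the difference was -0.25 (adjusted p = 0.225). SNHG15 fell after 48 h in each line, by 1.39 in COLO858 (adjusted p = 0.0097) and by 1.59 in MMACSF (adjusted p = 0.00184), with a difference between lines of 0.20 (adjusted p = 0.682). TUG1 had the largest positive 48 h difference in COLO858, 0.57 (adjusted p = 0.151).

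LINC00152 fell in COLO858 at 24 h by 1.21 (adjusted p = 0.00677) and rose from 24 h to 48 h by 1.65 (adjusted p = 0.00876), and its 48 h difference in MMACSF was -1.72 (adjusted p = 0.0204). EPB41L4A-AS1 was 14.6 and 14.7 FPKM under DMSO and 13.3 and 13.7 at 48 h in COLO858, and 19.5 and 14.6 and then 43.5 and 34.7 in MMACSF. Its difference between lines was -1.26 (adjusted p = 0.00844). Of the 14 RNAs tested from the list, 4 passed that test at 48 h, against 3.3% of all genes lower in COLO858 and 4.19% higher. The 3 that were lower in COLO858 were SNHG7, DANCR and EPB41L4A-AS1. The 1 that was higher was LINC00152 (2.17, adjusted p = 0.00932), which holds no snoRNA in its span.

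The translation genes were measured for 93 symbols, of which 90 were tested in COLO858 and 91 in MMACSF. At 48 h in COLO858 their median was -0.67 (-0.01 over all genes) and 89 of 90 were lower. By the test 22 fell and 0 rose, against 4.73% and 4.74% of all genes. NPM1, a nucleolar protein gene, was lowest of the list at -1.18 (adjusted p = 0.0097) and RPS4X highest at 0.03 (adjusted p = 0.884). In MMACSF the median was 0.11 (0.06 over all genes) and 69 of 91 were higher. Of the 91, 0 passed the limma test in either direction (13 had an unadjusted p under 0.05), where 3.42% of all genes rose and 5.41% fell. EIF3F, a subunit of an initiation factor, was highest of the list in MMACSF at 0.65 (adjusted p = 0.0187) and RPL21 lowest at -2.92 (adjusted p = 0.281). The RPL21 value rests on 1 library, replicate 2 under DMSO at 59.3 FPKM, the other MMACSF libraries being at most 0.0539. The difference between lines at 48 h had a median of -0.78 (-0.04 over all genes). Of the list, 16 genes passed, all lower in COLO858, as did 3.3% of all genes. GAS5 exceeded all 91 translation genes in its 48 h difference in MMACSF, and ZFAS1 exceeded 89 and SNHG1 88 of them. In COLO858 the hosts lay inside the range of the list, with 64 of 90 translation genes below GAS5, 75 below ZFAS1, 37 below SNHG1 and 29 below SNHG5. By sign alone, 68 of the 90 tested in both lines were lower in COLO858 and higher in MMACSF at 48 h. The same signs were seen for 4 of the 8 members (GAS5, ZFAS1, SNHG1 and SNHG8). For SNHG8 the MMACSF groups overlapped (0.21, SE 0.26). The share of all genes with these signs was not computed.

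**Figure D4:**
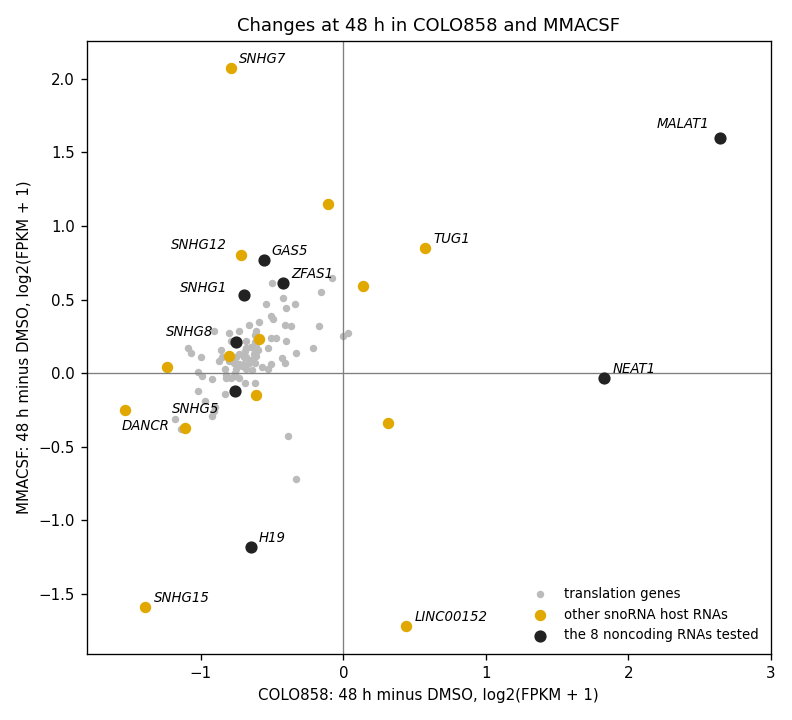
Difference between 48 h and DMSO in log2(FPKM + 1) in COLO858 (x axis) and MMACSF (y axis) for the 8 noncoding RNAs tested (black), the 14 RNAs tested from the list of other snoRNA hosts (gold) and the 90 translation genes (grey). LINC00152, MIR17HG and TUG1 of that list hold no snoRNA in their span. GAS5, ZFAS1 and SNHG1 lie at the upper left above most translation genes, MALAT1 in the upper right, and NEAT1 at the right on the zero line of MMACSF.

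Genes of the machinery around these RNAs were counted from lists. Over all genes at 48 h, 4.74% rose and 4.73% fell in COLO858 (median -0.01), and 3.42% rose and 5.41% fell in MMACSF (median 0.06). The core proteins of snoRNPs fell in part in both lines, 5 of 9 at 48 h in COLO858 (median -1.16) and 3 of 9 in MMACSF (median -0.78), with none rising. RRP9 fell by 1.68 in COLO858 (adjusted p = 0.00976) and NOP58, a scaffold protein of box C/D snoRNPs, fell by 1.39 in MMACSF (adjusted p = 0.00428). Of the 16 nonsense-mediated decay factors, 0 passed limma's test in any comparison, with 48 h medians of 0.11 in COLO858 (5 had an unadjusted p under 0.05) and 0.08 in MMACSF (6 did). SMG6, an endonuclease of that pathway, was highest in both, at 0.71 (adjusted p = 0.0357) and 0.64 (adjusted p = 0.0167), and the exon junction proteins MAGOH (-0.60, adjusted p = 0.0631) and RBM8A (-0.64, adjusted p = 0.0459) were lowest in COLO858 and MMACSF. Paraspeckle proteins, 14 genes, had 0 calls by limma at 48 h in COLO858 (3 had an unadjusted p under 0.05, median -0.20), where NEAT1 rose, and 2 falls in MMACSF (median -0.49), RBM14 the largest at -1.07 (adjusted p = 0.00519). The extremes of that list were otherwise DAZAP1 at -0.70 (adjusted p = 0.0337) and MATR3 at 0.19 (adjusted p = 0.676) in COLO858, and ZNF24 at 0.37 (adjusted p = 0.372) in MMACSF. Nuclear speckle proteins, 15 genes, had 1 fall in COLO858 (RNPS1, -0.90, adjusted p = 0.00933) and 3 in MMACSF, led by the splicing factor SRSF3 (-1.73, adjusted p = 0.00709), beside the rise of MALAT1. PNISR, a speckle protein, had the largest positive difference of that list in both lines, 0.86 (adjusted p = 0.0363) and 0.81 (adjusted p = 0.0142).

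Growth arrest-specific genes that code for proteins are named for the same state as GAS5 and are unrelated to it in sequence. At 48 h, 3 of 8 rose in COLO858 (median 0.79) and 2 of 8 in MMACSF (median 0.61), and 0 fell. Over all genes, 4.74% and 3.42% rose, 4.73% and 5.41% fell, and the medians were -0.01 and 0.06. GAS1, a membrane protein gene of arrested cells, rose from 4.42 and 3.43 FPKM to 21.6 and 16.8 in COLO858 (2.03, adjusted p = 0.00427) and from 11.3 and 8.93 to 35.7 and 28.9 in MMACSF (1.58, adjusted p = 0.00659). GAS2L1 was lowest in COLO858 at -0.21 (adjusted p = 0.745). For this list 0 of 8 genes passed limma's test of a difference between lines at 48 h, and 2 had an unadjusted p under 0.05. Of the imprinted genes tied to H19 and MEG3, PEG10 fell in both lines, by 1.85 (adjusted p = 0.00288) and 1.61 (adjusted p = 0.00316), and SGCE was highest at 0.41 (adjusted p = 0.103) and 0.47 (adjusted p = 0.0579). Of 21 other long noncoding RNAs listed, 7 were tested and 0 passed limma's test at 48 h in either line, where 2 in COLO858 and 3 in MMACSF had an unadjusted p under 0.05. Their extremes were RPPH1 (-1.14, adjusted p = 0.11) and DLEU2 (0.13, adjusted p = 0.607) in COLO858, and DLEU2 (-0.76, adjusted p = 0.0441) and RMRP (1.37, adjusted p = 0.53) in MMACSF.

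Likeness was taken as the Pearson correlation of log2(FPKM + 1), centred on each line's mean, over the 12 libraries and 5540 genes with a mean of at least 10 FPKM in each line. These points share depth and the 2 replicate sets, and the values are descriptive. The genes most like GAS5 were ZFAS1 (0.964), EIF2D (0.956), a translation initiation factor, and PABPC1 (0.956), the cytoplasmic poly(A)-binding protein. PABPC1 is itself a TOP message, at 238 and 277 FPKM in COLO858 under DMSO and 179 and 210.3 at 48 h, and 283 and 320.4 and then 402 and 415 in MMACSF. The genes most like NEAT1 were PLK2 (0.989), KAT2B (0.983), an acetyltransferase, and TP53INP2 (0.982), an autophagy protein. KAT2B was 8.57 and 10.3 FPKM in COLO858 under DMSO, 60.8 and 72.9 at 24 h and 45.1 and 52.8 at 48 h, and in MMACSF 29.1 and 33.9, then 40.8 and 46.4, then 23.5 and 27.6, so that in MMACSF, as for NEAT1, its 24 h libraries were the highest. Among the members, MALAT1 and NEAT1 correlated at 0.87 and GAS5 and SNHG1 at 0.86, whereas SNHG5 and MALAT1 correlated at -0.79.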

How the data were processed

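RNA-seq libraries (strand-keeping kit with poly(A) selection, single 50-base reads) were, per the labels and the study's methods, aligned by the authors to hg19 with TopHat and quantified with Cuffdiff, and the deposited values are FPKM per gene, in 1 table per cell line. Tool versions, the gene annotation and the strand setting are not given in the sources used here. From these values, log2(FPKM + 1) was fitted, for genes that averaged 1 FPKM or more in some group, by limma 3.58.1 (R 4.3.3) with a mean-variance trend, 3 groups and 6 libraries per line (12696 genes in COLO858, 12599 in MMACSF), and 1 fit of 12 libraries (13595 genes) for differences between lines. Tests were two-sided with a threshold of 0.01. Simulated data with 200 changed genes gave 165 recovered and 5 false calls among 12282 genes for COLO858 at 48 h, 175 and 5 among 12285 for MMACSF, and 136 and 4 among 13204 for the difference between lines. How these counts vary with the size of a difference, or with deviations shared by same-numbered libraries, was not tested. Alternatives covered the added constant, minimum, replicate block, library scaling, variance trend and libraries in the fit. The fit without small RNA genes was chosen after seeing the data. Genes named are the 9 members, RNAs of the snoRNA host list past the threshold, and neighbours and overlapping genes. The 3 genes most like GAS5 and NEAT1 and the extremes of most lists at 48 h are named too. From the cell type marker and hosted small RNA lists only some genes are named, and not all extremes. Some overlapping genes are not reported here. The members and lists were chosen with earlier results of these data known. Sequences are from RefSeq GRCh38.p14 tables and gene positions from GENCODE on GRCh37. NEAT1 has no entry in the promoter table.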

Additional observations from a re-analysis of the deposited data

Results flagged for a closer look

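Responses to 48 h of vemurafenib that differed between the cell lines were found for 3 of the noncoding RNAs, each by a test of the difference itself (COLO858 minus MMACSF, limma, threshold of 0.01 on the adjusted p). NEAT1 differed by 1.86 (adjusted p = 0.000951), its mean FPKM in COLO858 being 107 under DMSO and 383 with 48 h of drug, and in MMACSF 383 and 377. GAS5 differed by -1.33 (adjusted p = 0.00277), the COLO858 means being 323 and 219 and the MMACSF means 768 and 1315. ZFAS1 differed by -1.03 (adjusted p = 0.00473), the COLO858 means being 232 and 173 and the MMACSF means 676 and 1031. Both drug libraries at 48 h lay on the stated side of both DMSO libraries in each of these cases except NEAT1 in MMACSF, where they bracketed DMSO. After rescaling by the sum without small RNA genes, NEAT1 kept its side of the threshold (adjusted p = 0.0014), and GAS5 (adjusted p = 0.0106) and ZFAS1 (adjusted p = 0.0183) did not.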

How the results depend on the processing

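Calls of single noncoding RNAs rest on 2 libraries a group, and most did not survive the loss of 1 library. Over fits with 1 library left out, the number of the 8 genes past the threshold was 0 to 1 in COLO858 at 24 h (2 with all libraries), 0 to 1 in COLO858 at 48 h (3), 0 in MMACSF at 48 h (3) and 1 to 3 for the difference between lines at 48 h (3). The share of all genes past it fell as well, to 0.52% to 3.41%, 0.874% to 2.76%, 0.675% to 2.76% and 4.18% to 6.63% in the same order. Replicate numbers are shared between groups, and the labels do not say what a number marks. Deviations of same-numbered libraries correlated at 0.196 to 0.211 in COLO858 and 0.0628 to 0.113 in MMACSF over all genes tested, and at 0.753 to 0.779 and 0.595 to 0.684 without small RNA genes, whose share was higher in replicate 2 of every group. With 2 pairs per comparison, whether the numbers pair the samples is not settled. With the replicate number as a block the counts were 4 in COLO858 at 24 h (45% of all genes passed), 7 at 48 h (43.7%) and 3 between the times (18%), 3 and 5 in MMACSF at 24 h (26.1%) and 48 h (30.1%), and 3, 6 and 5 for the differences between lines at 24 h (17.6%), 48 h (25.3%) and between the times (13%). SNHG1 was among those gained under the block, with adjusted p = 0.00785 and 0.000523 in COLO858 at 24 h and 48 h, 0.00401 in MMACSF at 48 h and 8.24e-05 for the difference between lines at 48 h. Fitting the groups compared alone gave 1, 1 and 0 for COLO858 at 24 h and 48 h and MMACSF at 48 h. Over all genes, 3.76%, 2.99% and 2.89% passed in the same order. With nothing added before the log, with median-ratio rescaling, or with small RNA genes left out of the fit (chosen after seeing the data), 1 gene passed in MMACSF at 24 h (MALAT1) and 1 in the difference between lines at 24 h (NEAT1). Over all genes, 9.71% and 2.56% passed there with nothing added, 7.01% and 4.36% under median-ratio rescaling and 10.1% and 4.26% without small RNA genes. Median-ratio rescaling lost GAS5 in MMACSF (adjusted p = 0.0105) and SNHG5 in COLO858 (adjusted p = 0.0102) at 48 h, and the fit without small RNA genes gained ZFAS1 in MMACSF at 48 h (adjusted p = 0.0086). In MMACSF at 48 h, 1 gene passed with no minimum (4.75% of all genes did) and 1 with no variance trend (7.91%). H19 was that gene in both, and its lower value is given as a description. With libraries rescaled by the sum without small RNA genes, 1 gene (GAS5) passed there, against 6.74% of all genes. That rescaling also left 1 (NEAT1) in the difference between lines at 48 h, against 7.29%. The cause of these changes was not tested.

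That last rescaling moved the median of all genes to 0.24 in COLO858 at 24 h, 0.19 at 48 h and 0.11 in MMACSF, and turned the sign of differences that had not passed the test. In COLO858 at 24 h, GAS5 became 0.04, SNHG8 0.06, ZFAS1 0.13 and H19 0.14. In MMACSF, SNHG8 became 0.01 at 24 h and NEAT1 0.02 at 48 h. In the difference between lines at 24 h, SNHG1 became 0.08 and SNHG8 0.04. With 1 library left out, signs of uncalled differences also turned. In COLO858 at 24 h the ranges were -0.38 to 0.25 for H19, -0.38 to 0.08 for SNHG8 and -0.23 to 0.08 for ZFAS1, and between 24 h and 48 h -0.01 to 0.53 for MALAT1 and -0.27 to 0.02 for NEAT1. In MMACSF they were -0.19 to 0.12 for SNHG8 at 24 h, -0.14 to 0.55 for SNHG8 and -0.15 to 0.09 for NEAT1 at 48 h, and between the times -0.08 to 0.36 for MALAT1, -0.14 to 0.04 for SNHG5 and -0.10 to 0.59 for SNHG8. For the differences between lines they were -0.30 to 0.14 for SNHG1 and -0.35 to 0.12 for SNHG8 at 24 h, and -0.27 to 0.35 for H19 and -0.16 to 0.39 for MALAT1 between the times. Of 1269 values recomputed for single genes, 1124 kept direction and side of the threshold, 76 lost the threshold, 32 gained it and 37 turned sign. FPKM carry no read counts, so depth sets no stated limit here, and levels near 1 FPKM, as for H19 in MMACSF, are the least certain.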
